A study of Homo sapiens with 6 samples.

Results

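The genes described here are 27 genes of cholesterol synthesis, of its control by the sterol regulatory element-binding proteins (SREBPs) and of sterol transport and uptake, out of 58735 genes in the expression table. They were taken from the table by symbol, though the list was chosen with earlier results of these data known. Of the 27, 19 encode enzymes from acetoacetyl-CoA to cholesterol and geranylgeranyl diphosphate, 5 control SREBP activity and 3 move or bind sterols. The cells sequenced were PANC-1, a line from a human pancreatic ductal adenocarcinoma, grown in DMEM with fetal bovine serum. By the titles and the sequencing methods, the 3 si-NC samples received control siRNA and the 3 si-METTL16 samples siRNA against METTL16. METTL16 is an RNA methyltransferase that places N6-methyladenosine on U6 snRNA and on hairpins of MAT2A mRNA. The control samples are titled si-NC but carry the tag WT, and the methods call the transfection stable while the labels name siRNA only. For silencing METTL16 in PANC-1 the methods elsewhere name shRNA, with puromycin selection of stable cells. Neither methods nor labels say which METTL16 siRNA or what interval before harvest was used. Every sample shares 1 cell line, and a difference from off-target effects of an siRNA or shRNA cannot be told apart from one of METTL16 loss.

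Cholesterol is built from acetyl-CoA through mevalonate, isoprenoid diphosphates, squalene and lanosterol. When sterols in the endoplasmic reticulum (ER) are scarce, SCAP carries SREBP to the Golgi, where proteases release the factor that switches on most genes of the pathway. When sterols are plentiful, INSIG proteins hold the SCAP-SREBP complex in the ER. SREBP2, from SREBF2, acts mainly on the cholesterol genes, and SREBP1, from SREBF1, mainly on fatty acid genes.

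The deposited counts summed to between 15725298 and 18054436 per sample. METTL16 had 91.5, 96.7 and 101 CPM (counts scaled to a common library total) in si-NC replicates 1 to 3 but 34.8, 33.9 and 34.9 CPM with si-METTL16, a log2 fold change (si-METTL16 against si-NC, here and below) of -1.48 (SE 0.07, adjusted p = 8.3e-05). Of 7 ductal or epithelial markers 5 reached 1 FPKM in all 6 samples. The summed level of all 7 spanned 352 to 454 FPKM in si-NC and 361 to 401 FPKM in si-METTL16. Acinar (0 of 5), endocrine (0 of 5), immune (0 of 4) and endothelial (0 of 3) markers did not reach that level in all samples, with CPA1, AMY2A, GCG and CD3E at 0 counts. The summed fibroblast markers were at 25.9 to 30 FPKM in si-NC and 62.4 to 66.2 FPKM in si-METTL16, nearly all from COL1A1. Both fibroblast markers that could be tested rose (COL1A1 1.27, adjusted p = 9.4e-05, and COL3A1 0.69, adjusted p = 0.00731), while DCN, LUM and PDGFRB were too low to test. Their part in the results below was not tested. Within the ductal list, KRT19 (log2 fold change -1.40, adjusted p = 0.00111), CDH1 (-1.09, adjusted p = 0.00594), KRT7 (-0.84, adjusted p = 0.0117) and SOX9 (-0.25, adjusted p = 0.00987) fell. The other 3 were not called: KRT8 (-0.23), KRT18 (0.20) and EPCAM (0.44). In these bulk samples, fewer cells of a kind and less RNA per cell cannot be told apart.

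The members that changed did so in both directions. All 27 passed the filter on low counts, and 9 passed an adjusted p under 0.05 in edgeR's quasi-likelihood test (called below), 7 higher and 2 lower in si-METTL16. Of all 15089 genes tested, 35.9% were called, 18.4% higher and 17.5% lower, so the 33.3% of members called was near the background and is not a result about the members. The 3 values of each group did not overlap for 16 of the 27 members, where 50.9% of all tested genes did not overlap. The log2 fold change was above 0 for 18 of 27 members, with a median of 0.25, and for 49.5% of all tested genes, with a median of -0.00. Among the 19 enzymes 3 were called higher and 2 lower, with a median of 0.25, and among the other 8 members 4 were called higher and 0 lower. INSIG1, TMEM97, NPC1 and DHCR7 rose and TM7SF2 and GGPS1 fell in all 16 other fits tried, including the 6 that each left out a sample (leave-one-out fits). MVK, CYP51A1 and SREBF2 also rose, but lost their call when any of several samples was left out.

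**Figure D1:**
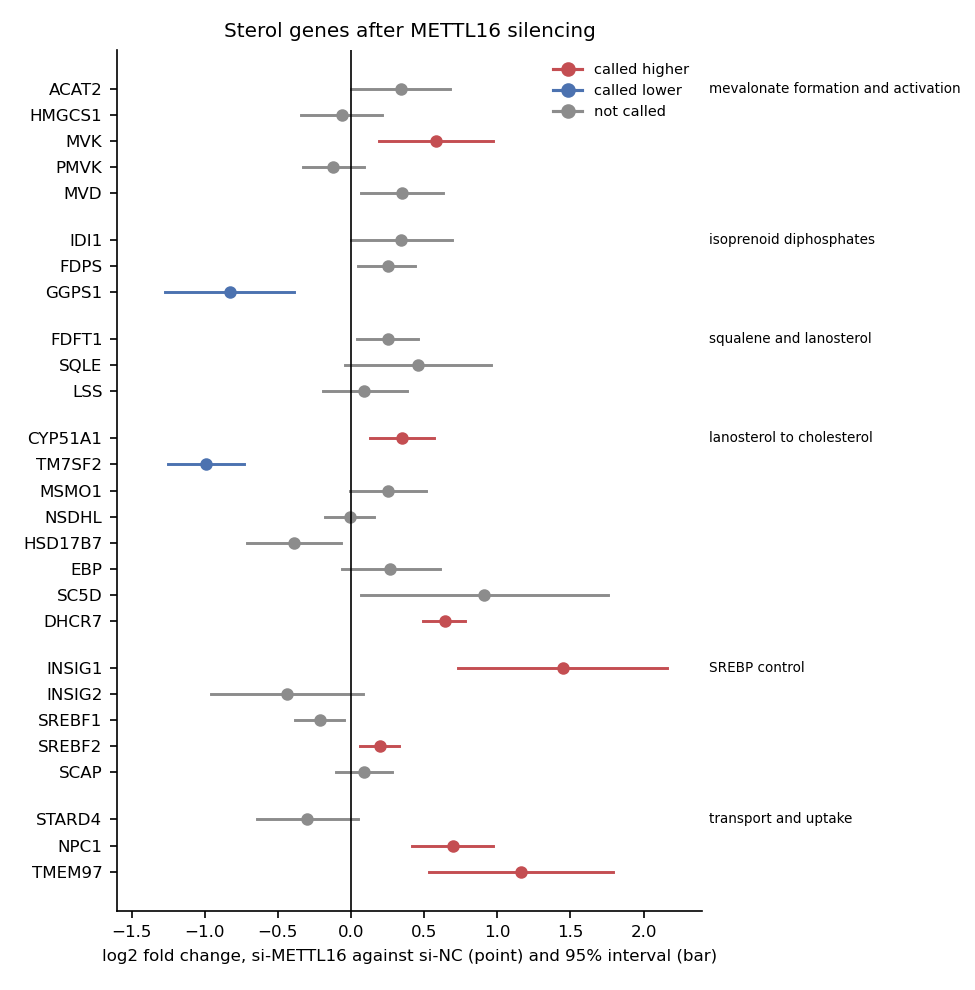
The log2 fold change of each of the 27 members (x axis, si-METTL16 against si-NC, 3 samples each) is drawn as a point with its 95% interval as a bar, grouped by role, with red for genes called higher, blue for genes called lower and grey for genes not called. INSIG1 lies farthest to the right at 1.45 and TM7SF2 farthest to the left at -0.99, and 10 of the 19 enzymes lie between 0 and 0.5.

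Before the differences, the levels in the control cells differed widely between members. Per length, the deposited values put NSDHL (32.8 FPKM), MSMO1 (29.8), PMVK (28.6), SQLE (26.1) and ACAT2 (24.5) highest in si-NC and STARD4 (2.12) and MVK (1.05) lowest. The gene lengths behind those values ran from 1280 to 16853 bases and were from 1.04 (HMGCS1) to 3.5 (TM7SF2) times the merged exons of GENCODE release 44. With the GENCODE lengths the same 5 genes led, in another order (MSMO1 48.8, ACAT2 45.9, NSDHL 45.4, PMVK 36.3 and SQLE 34.7 CPM per kilobase), and MVK stayed lowest at 1.64. GGPS1 was in place 9 on the first scale and in place 6 on the second. The order of members in between therefore depends on the length used.

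Mevalonate formation and activation takes 5 of the members, of which only MVK was called. MVK (ENSG00000110921, chr12:109573255-109598117), the kinase that phosphorylates mevalonate, was at 13.6, 18.3 and 12.4 CPM in si-NC replicates 1 to 3 and at 24.0, 22.8 and 19.4 CPM in si-METTL16. Every si-METTL16 sample was above every si-NC sample, by a margin of about 1 CPM between the nearest samples. MVK rose by 0.58 on the log2 scale (SE 0.17, adjusted p = 0.0317), and the adjusted p was 0.097 without si-NC replicate 1, 0.0948 without si-NC replicate 3, 0.0944 without si-METTL16 replicate 1 and 0.0844 without si-METTL16 replicate 2. MVK had the fewest counts of the members, 1854 over the 6 samples, and shares exon bases on the opposite strand with MMAB.

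ACAT2, which joins acetyl-CoA units in the cytosol, was at 93.7, 137 and 133 CPM in si-NC and at 142, 156 and 162 CPM in si-METTL16. The groups did not overlap, with si-NC replicate 1 far below the rest, and the log2 fold change of 0.34 (95% interval 0.00 to 0.68, adjusted p = 0.106) did not pass. Its count is uncertain, since 17.2% of its exon bases lie opposite those of TCP1. MVD, which makes isopentenyl diphosphate by decarboxylation, was at 29.6, 36.1 and 34.2 CPM against 37.2, 43.2 and 47.2 CPM, again without overlap and without a call (0.35, adjusted p = 0.0563). Leaving out si-METTL16 replicate 1 gave MVD an adjusted p of 0.0343, and the other leave-one-out fits gave up to 0.155. HMGCS1, the synthase of HMG-CoA, had a log2 fold change of -0.06 (95% interval -0.34 to 0.21), and PMVK, the next kinase, one of -0.12 (95% interval -0.33 to 0.09), both with overlapping groups. Without si-NC replicate 1 or without si-METTL16 replicate 1 the value for HMGCS1 was 0.01, so its direction is not set.

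The isoprenoid step splits the pathway: FDPS makes farnesyl diphosphate for sterols, and GGPS1 (ENSG00000152904, chr1:235327350-235344532) extends it to geranylgeranyl diphosphate, a lipid attached to small GTPases. GGPS1 was at 123, 109 and 138 CPM in si-NC and at 84.5, 50.1 and 73.9 CPM in si-METTL16. All 3 si-METTL16 samples were below all si-NC samples, with si-METTL16 replicate 2 the lowest. GGPS1 fell by 0.83 on the log2 scale (SE 0.19, adjusted p = 0.0133), and its fold change stayed between -1.0 and -0.64 when any sample was left out. The count of GGPS1 is uncertain, since 37.3% of its exon bases in GENCODE release 44 also belong to a TBCE gene model (ENSG00000285053) on the same strand. That model, looked up after its values were seen, differed by -0.39 on the log2 scale (adjusted p = 0.217).

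IDI1, the isomerase before FDPS, was at 81.6, 125 and 99.7 CPM in si-NC and at 125, 137 and 127 CPM in si-METTL16, a log2 fold change of 0.34 (adjusted p = 0.107). FDPS was at 59.8, 72.8 and 66.6 CPM against 79.0, 78.9 and 78.4 CPM, a log2 fold change of 0.25 (adjusted p = 0.0568). The si-METTL16 values of FDPS lay within 1 CPM of each other and above all of si-NC, while those of IDI1 touched si-NC replicate 2. Without si-NC replicate 2, both passed the threshold (IDI1 0.51, adjusted p = 0.0168, and FDPS 0.31, adjusted p = 0.0366). Without si-NC replicate 1 the values were smaller (IDI1 0.20, adjusted p = 0.231, and FDPS 0.17, adjusted p = 0.137).

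None of the 3 members from squalene to lanosterol was called. FDFT1, which makes squalene, was at 53.7, 65.7 and 64.4 CPM in si-NC and at 71.7, 72.9 and 73.9 CPM in si-METTL16. These groups did not overlap, and the log2 fold change of 0.25 (95% interval 0.04 to 0.46) had an adjusted p of 0.0688. SQLE, the squalene epoxidase and the member with the most counts, was at 132, 188 and 128 CPM against 159, 194 and 263 CPM. The SQLE groups overlapped and si-METTL16 replicate 3 stood highest, so the log2 fold change of 0.46 had a 95% interval from -0.04 to 0.96. LSS, which closes the lanosterol rings, had a log2 fold change of 0.09 (95% interval -0.19 to 0.38), which was -0.03 without si-NC replicate 1.

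The 8 enzymes that turn lanosterol into cholesterol held 2 that rose and 1 that fell. DHCR7 (ENSG00000172893, chr11:71428193-71452868), the reductase of 7-dehydrocholesterol and the closing step of 1 branch, was at 144, 132 and 134 CPM in si-NC and at 205, 223 and 210 CPM in si-METTL16. Samples of each group lay close together and far from the other group. DHCR7 rose 1.55-fold (log2 fold change 0.64, SE 0.06, adjusted p = 4.2e-04), the lowest adjusted p of the members. TM7SF2 (ENSG00000149809, chr11:65111845-65116384), a sterol reductase of the ER, was at 50.7, 58.7 and 46.1 CPM in si-NC and at 25.4, 25.1 and 28.0 CPM in si-METTL16, again with tight groups that did not overlap. TM7SF2 was 1.98-fold lower (log2 fold change -0.99, SE 0.11, adjusted p = 7.3e-04). LBR, which catalyses the same reduction and was picked out after its values were seen, differed by -0.05 on the log2 scale (adjusted p = 0.666).

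CYP51A1 (ENSG00000001630, chr7:92112151-92134803), which removes a methyl group from lanosterol, was at 88.4, 109 and 94.4 CPM in si-NC and at 117, 132 and 122 CPM in si-METTL16. The groups did not overlap, and CYP51A1 rose by 0.35 on the log2 scale (SE 0.09, adjusted p = 0.0241). Its adjusted p was 0.0737 without si-NC replicate 1, 0.0838 without si-NC replicate 3, 0.0781 without si-METTL16 replicate 2 and 0.0576 without si-METTL16 replicate 3. Reads of its processed copies are hard to tell from its own: pseudogenes named after it took 5.82% of all counts assigned to CYP51A1 and to them.

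SC5D, a desaturase late in the pathway, was at 46.2, 74.4 and 51.1 CPM in si-NC and at 70.8, 78.7 and 173 CPM in si-METTL16. The groups overlapped, and si-METTL16 replicate 3 alone was above 100 CPM. The log2 fold change of SC5D was 0.91 (95% interval 0.07 to 1.76, adjusted p = 0.0875) and 0.39 (adjusted p = 0.208) without that sample. HSD17B7, a sterol ketone reductase, was at 19, 21.3 and 25.5 CPM against 15.1, 18.0 and 17.2 CPM, without overlap (log2 fold change -0.39, adjusted p = 0.0613, with 0.0398 without si-NC replicate 1 and up to 0.173 without another sample). Its pseudogenes held 5.61% of the shared counts. MSMO1, the C4-methylsterol oxidase, was at 116, 159 and 142 CPM against 163, 165 and 166 CPM, without overlap (0.25, adjusted p = 0.126, with 0.0436 without si-NC replicate 2 and up to 0.241 without another sample). EBP, a sterol isomerase, had a log2 fold change of 0.27 (95% interval -0.06 to 0.61), and NSDHL, a sterol dehydrogenase, one of -0.01 (95% interval -0.18 to 0.16), which was 0.03 without si-NC replicate 2 and 0.01 without si-METTL16 replicate 2. Of the exon bases of EBP, 36.4% also belong to another gene model on the same strand.

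**Figure D2:**
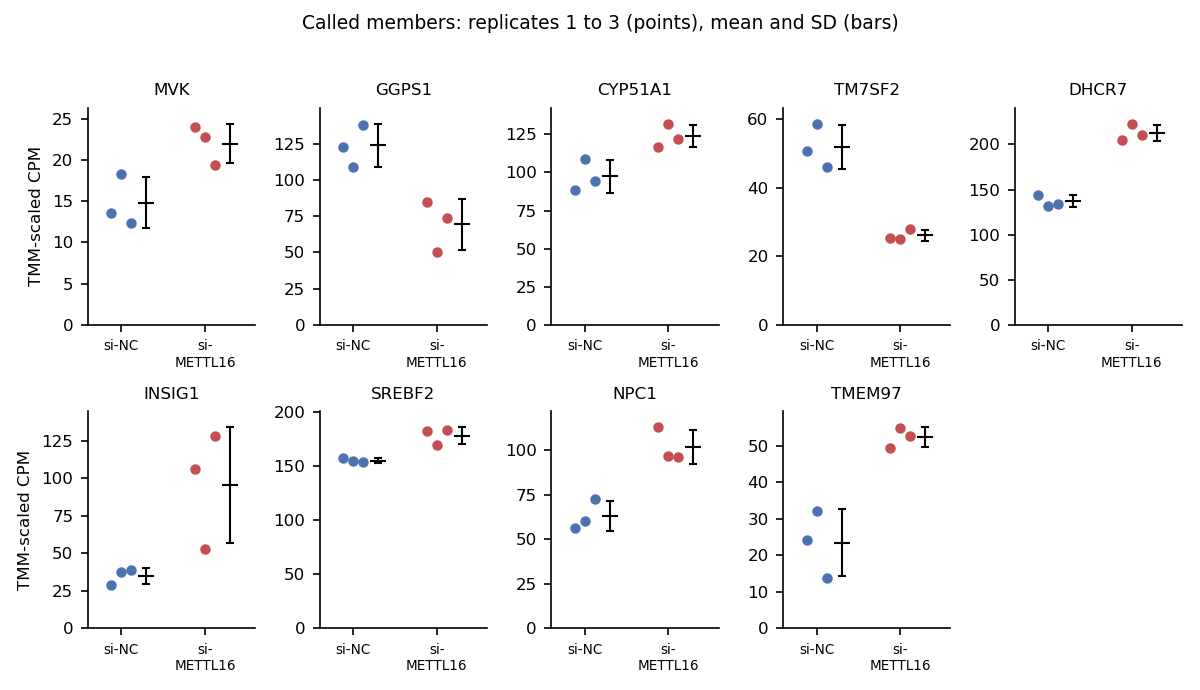
TMM-scaled CPM (y axis, from 0) of the 9 called members is shown for replicates 1 to 3 of si-NC (blue points) and si-METTL16 (red points), with the mean and SD of each group in black. In every panel the groups do not overlap, and the widest spread is that of INSIG1 in si-METTL16, from 53.0 to 128 CPM.

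The control genes were led by INSIG1 (ENSG00000186480, chr7:155297776-155310235), the ER protein that retains SCAP and is itself a known SREBP target. INSIG1 was at 29, 37.3 and 39 CPM in si-NC and at 106, 53.0 and 128 CPM in si-METTL16. Every si-METTL16 sample was above every si-NC sample, but replicate 2 was less than 1.5 times the highest of si-NC. INSIG1 rose 2.73-fold (log2 fold change 1.45, SE 0.31, adjusted p = 0.00976), and the log2 fold change without single samples ran from 1.18 to 1.73. INSIG2, its relative, was at 25.1, 18.8 and 30.6 CPM against 19.1, 22.0 and 13.9 CPM, with overlapping groups (-0.44, 95% interval -0.96 to 0.08).

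SREBF2 (ENSG00000198911, chr22:41833079-41907308) was at 157, 155 and 154 CPM in si-NC and at 182, 169 and 183 CPM in si-METTL16. The si-NC samples lay close together and all si-METTL16 samples were above them. SREBF2 rose by 0.20 on the log2 scale (SE 0.06, adjusted p = 0.0306), the smallest change among the called members. It was called in 6 of the 16 other fits, and its adjusted p was 0.0684, 0.0853 and 0.103 when si-NC replicate 1, 2 or 3 was left out, and 0.0969 or 0.0933 when si-METTL16 replicate 1 or 3 was. SREBF1 was at 136, 146 and 145 CPM against 127, 113 and 129 CPM, without overlap (log2 fold change -0.21, 95% interval -0.38 to -0.05, adjusted p = 0.052), and was called lower in 5 of the 16 other fits, those with total-count or upper-quartile scaling and the 3 with limma. SCAP, the escort of both factors, had a log2 fold change of 0.09 (95% interval -0.10 to 0.28). RAI1 lies on the opposite strand over 6.75% of the exon bases of SREBF1. Picked out after its values were seen, RAI1 was called higher (0.42, adjusted p = 0.0317). It kept that call in 1 leave-one-out fit of 6, the one without si-NC replicate 3.

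Promoter sequences were read from RefSeq (GRCh38.p14), as windows from 250 bases before to 50 after the start of each gene, for 24 of the 27 members. The 250 bases before the RefSeq start of SREBF2 and of INSIG1 are printed 5′ to 3′ on the plus strand. The product of SREBF2 acts on genes of the pathway, and INSIG1 is the member with the largest rise. Capitals mark a CCAAT box (read as ATTGG on this strand) and a match to CACNCCAC, the core of a sterol regulatory element with a free base. The match is CACCCCAC in SREBF2 and CACGCCAC, on the strand opposite to the print, in INSIG1. The genes printed were chosen after matches and fold changes were seen. In the deposited table SREBF2 starts at 41833079 and INSIG1 at 155297776, so by those positions the last bases printed lie inside each gene.
SREBF2, chr22:41832855-41833104: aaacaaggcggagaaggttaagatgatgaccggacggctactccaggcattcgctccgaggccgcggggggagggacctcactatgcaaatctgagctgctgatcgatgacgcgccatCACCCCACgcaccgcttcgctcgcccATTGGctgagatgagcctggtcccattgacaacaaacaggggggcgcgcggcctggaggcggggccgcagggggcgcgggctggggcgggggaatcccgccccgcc
INSIG1, chr7:155297628-155297877: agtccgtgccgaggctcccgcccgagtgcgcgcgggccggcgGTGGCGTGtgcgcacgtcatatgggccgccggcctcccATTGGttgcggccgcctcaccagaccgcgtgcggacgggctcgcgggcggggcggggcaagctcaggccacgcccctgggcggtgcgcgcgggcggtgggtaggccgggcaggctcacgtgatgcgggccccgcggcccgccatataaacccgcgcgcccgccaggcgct
IDI1 and SC5D held the same letters as INSIG1 (CACGCCAC, read as GTGGCGTG), shown in capitals within 30 bases of their own strand. The match of SC5D lies after the start, at base 14, and that of IDI1 before it.
IDI1, chr10:1048982-1049011, minus strand: gccgggcgatGTGGCGTGgactggcgctgg
SC5D, chr11:121292774-121292803, plus strand: ttgcagagcaGTGGCGTGcggagcggcggc

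The 9-letter sterol regulatory element TCACCCCAC was found, on either strand, in 1 of 24 member windows (SREBF2, 4.17%) and in 0.535% of the 27305 genes with a window. Its form with a free base, TCACNCCAC, was found in the same 1 window and in 1.39% of all. The shorter core CACNCCAC, which lies inside both and was added after those results were seen, was found in 4 of 24 windows (16.7%) and in 7.05% of all. A CCAAT box, bound by NF-Y, was found in 18 of 24 (75%, against 39.7% of all), a GC box GGGCGG, bound by Sp1, in 23 of 24 (95.8%, against 48.3%) and an E box CACGTG in 4 of 24 (16.7%, against 8.77%). In these 6 searches a match is a run of letters and not a known binding site. The shares of all take in genes that did not pass the filter on low counts, while every member passed it. No comparison with expressed genes alone was made. Of the 4 windows with the core, those of INSIG1 and SREBF2 belong to genes that rose, and those of IDI1 (0.34) and SC5D (0.91) to genes not called.

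Among the members of transport and uptake, NPC1 (ENSG00000141458, chr18:23506184-23586898), which exports cholesterol from lysosomes, was at 56.1, 60.5 and 72.7 CPM in si-NC and at 113, 96.8 and 96.5 CPM in si-METTL16. No si-METTL16 sample overlapped si-NC, and NPC1 rose 1.62-fold (log2 fold change 0.70, SE 0.12, adjusted p = 0.00373). Its neighbour RMC1 lies on the opposite strand over 6.38% of the exon bases of NPC1. RMC1, picked out after its values were seen, was called higher (0.34, adjusted p = 0.0219). It lost that call without si-NC replicate 1 (adjusted p = 0.0674) or 2 (0.0669) and without si-METTL16 replicate 1 (0.0689) or 2 (0.058).

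TMEM97 (ENSG00000109084, chr17:28319095-28328685), an ER protein that binds NPC1, was at 24.2, 32.3 and 13.9 CPM in si-NC and at 49.5, 55.0 and 52.7 CPM in si-METTL16. The si-NC samples were spread more than 2-fold, and the si-METTL16 samples were all above them. TMEM97 rose 2.23-fold (log2 fold change 1.16, SE 0.27, adjusted p = 0.0143). IFT20 lies on the opposite strand over 12.3% of the exon bases of TMEM97. Picked out after its values were seen, IFT20 was called lower (-0.70, adjusted p = 0.0192), but not without si-NC replicate 1 (adjusted p = 0.061) or without si-METTL16 replicate 2 (0.0597) or 3 (0.0507). STARD4, a soluble sterol carrier, was at 23.9, 31.0 and 33.1 CPM against 21.3, 26.4 and 24.0 CPM, with overlapping groups (-0.30, adjusted p = 0.154, with 0.0411 without si-NC replicate 1 and up to 0.377 without another sample).

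The enzymes shared differences between samples of the same group. Taken as log2 CPM minus the si-NC mean of each gene, the median of the 19 enzymes was -0.15, 0.17 and 0.01 for replicates 1 to 3 of si-NC against 0.23, 0.26 and 0.28 for those of si-METTL16, while the median of all tested genes was within 0.01 of 0 in each sample. The si-METTL16 medians were close to each other and the highest si-NC median was close to them. Replicate 1 was the lowest si-NC sample for 13 of 19 enzymes, against 35.3% of all tested genes, and replicate 2 was the highest for 14 of 19, against 33.6%. In si-METTL16, replicate 1 was the lowest for 12 of 19 enzymes, against 34.4% of all tested genes. Replicate 3 was the highest si-METTL16 sample for 10 of 19, against 33.4%. The median log2 fold change of the 27 members was 0.17 without si-NC replicate 1 and 0.31 without si-NC replicate 2. Of the 14 enzymes not called, 10 had a log2 fold change above 0, and their adjusted p ran from 0.0563 to 0.935.

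**Figure D3:**
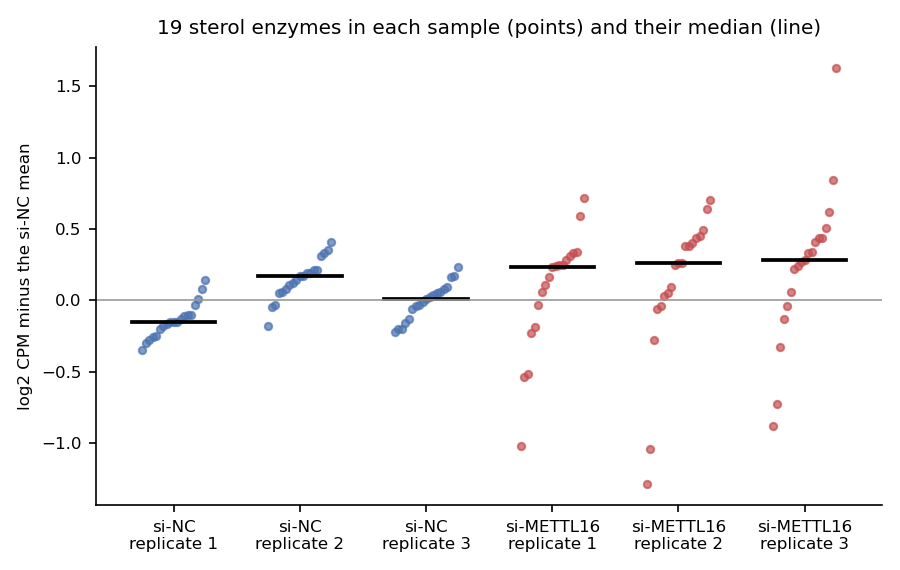
Each point is 1 of the 19 enzymes in 1 sample (x axis), as log2 CPM minus the mean of the 3 si-NC samples (y axis), with blue for si-NC and red for si-METTL16, and the black line is the median. The medians run from -0.15 to 0.17 in si-NC and from 0.23 to 0.28 in si-METTL16, and the lowest and highest red points are wider apart than any in si-NC.

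Further genes of the pathway were read from lists. Of 13 genes that process SREBPs or degrade sterol-sensing proteins in the ER, 3 were called higher and 5 lower (61.5% called, beside 35.9% of all tested genes), with a median log2 fold change of -0.14. ERLIN1, an ER lipid raft protein, rose from 94.4, 98.2 and 98.7 CPM to 183, 193 and 177 CPM (0.92, SE 0.06, adjusted p = 1.2e-04), while its partner ERLIN2 fell (-0.53, adjusted p = 0.00499). MBTPS2, the site-2 protease that releases SREBPs, fell from 58.5, 58.8 and 57.4 CPM to 30.5, 36.2 and 32.8 CPM (-0.81, SE 0.09, adjusted p = 5.8e-04). Of its exon bases, 12.2% are shared with YY2 on the same strand. SPRING1, a cofactor of the site-1 protease, fell from 158, 143 and 146 CPM to 93.4, 83.0 and 82.9 CPM (-0.79, SE 0.07, adjusted p = 4.0e-04). Neither pair of groups overlapped, and the site-1 protease gene MBTPS1, picked out after its values were seen, was also called lower (-0.35, adjusted p = 0.0184), but not without si-NC replicate 1 (adjusted p = 0.0558) or without si-METTL16 replicate 2 (0.0531) or 3 (0.0546). FBXW7, which marks active SREBPs for degradation, rose (0.52, adjusted p = 0.00916), and the ubiquitin ligase gene RNF145 rose (0.36, adjusted p = 0.0469) with a call in only 1 leave-one-out fit of 6, the one without si-METTL16 replicate 3 (adjusted p = 0.0188).

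Of 22 genes of sterol storage, lysosomal release and transport, 20 were tested, 5 were called higher and 6 lower (55% called, beside 35.9% of all), and the median was -0.30. SCARB1, the receptor for high-density lipoprotein, fell from 482, 472 and 435 CPM to 232, 245 and 263 CPM (-0.91, adjusted p = 1.8e-04). GRAMD1A (-1.0, adjusted p = 2.1e-04), which carries cholesterol from the plasma membrane, and STARD3NL (-0.93, adjusted p = 1.7e-04), a tether of endosomes to the ER, fell as well. SOAT1, which esterifies cholesterol for storage, rose from 96.2, 101 and 105 CPM to 159, 149 and 149 CPM (0.59, adjusted p = 5.7e-04). The oxysterol-binding protein genes OSBPL11 (0.82, adjusted p = 4.8e-04) and OSBPL2 (0.45, adjusted p = 0.0293) rose, the latter with a call in 2 leave-one-out fits of 6, those without si-NC replicate 3 (adjusted p = 0.0443) and without si-METTL16 replicate 3 (adjusted p = 0.0374).

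Of 18 genes that use isoprenoids, 5 were called higher and 3 lower (44.4% called, beside 35.9% of all), with a median of 0.15. SRD5A3, which makes dolichol, fell (-0.98, adjusted p = 0.0145), as did PCYOX1 (-0.49, adjusted p = 6.2e-04), which breaks down prenylcysteines, and CHM (-0.30, adjusted p = 0.0123), the Rab escort protein, while its paralog CHML rose (0.52, adjusted p = 0.00837). PDSS1, which builds the ubiquinone side chain, and FNTA, a subunit of prenyl transferases, rose by 0.58 (adjusted p = 0.0291) and 0.41 (adjusted p = 0.0339). Each was called in 1 leave-one-out fit of 6, PDSS1 without si-METTL16 replicate 1 (adjusted p = 0.0144) and FNTA without si-METTL16 replicate 2 (adjusted p = 0.0231). The count of PDSS1 is uncertain, since 10.8% of its exon bases lie opposite those of ABI1, which had 7141 counts against 927. Of the exon bases of SRD5A3, 23.2% also belong to another gene model on the same strand.

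Of 9 fatty acid genes controlled by SREBP1, 1 was called higher and 3 lower (44.4% called, beside 35.9% of all), with a median of -0.07. SCD, the stearoyl-CoA desaturase, fell from 8013, 10188 and 9612 CPM to 5414, 5706 and 6005 CPM (-0.70, adjusted p = 0.00133), and ELOVL6 (-0.46, adjusted p = 0.0127), which elongates fatty acids, and ACLY (-0.40, adjusted p = 0.0149), which supplies acetyl-CoA, fell too. ACLY had an adjusted p of 0.0529 without si-NC replicate 3. ACACA, the acetyl-CoA carboxylase, rose (0.33, adjusted p = 0.00268). Of 11 partners and isozymes of the sterol enzymes, 8 were tested, 1 was called higher (ACAT1, the mitochondrial thiolase, 0.41, adjusted p = 0.00719) and 1 lower (ERG28, a scaffold of sterol enzymes, -0.32, adjusted p = 0.0172), which is 25% called beside 35.9% of all, with a median of -0.08. ERG28 had an adjusted p of 0.0549 without si-NC replicate 2, 0.0598 without si-NC replicate 3 and 0.0514 without si-METTL16 replicate 1. Of 10 genes of the LXR receptors, cholesterol efflux and oxysterols, 7 were tested, and RXRA (-0.28, adjusted p = 0.035), called in 1 leave-one-out fit of 6 (without si-METTL16 replicate 3, adjusted p = 0.0452), was the only one called (14.3%, beside 35.9% of all).

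**Figure D4:**
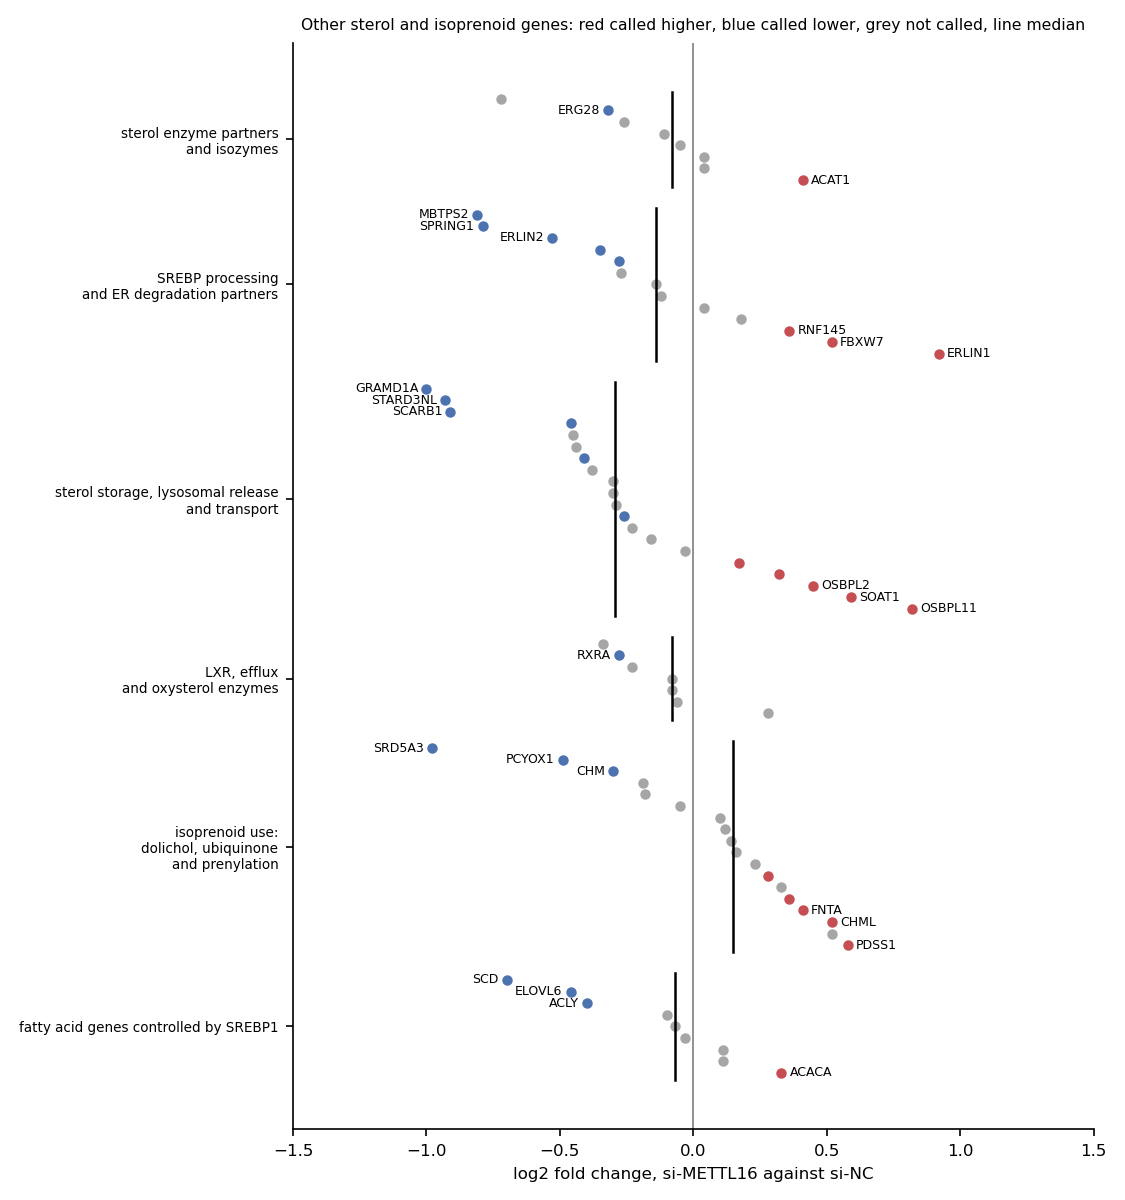
The log2 fold change (x axis, si-METTL16 against si-NC) of each tested gene in 6 lists around the pathway is drawn as a point, red for called higher, blue for called lower and grey for not called, with a black line at the median of the list and the genes at either end of the calls named. All 6 medians lie between -0.30 and 0.15, and called genes lie on both sides of 0 in 5 of the 6 lists.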

How the data were processed

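Total RNA of 3 si-NC and 3 si-METTL16 samples was sequenced on an Illumina HiSeq instrument with a SMARTER mRNA library kit, and the methods state biological triplicates. Groups and replicate numbers came from the sample titles. Per the labels, the processing used HISAT2 2.0.4, StringTie 1.3.0 and GRCh38, and the annotation release and use of strand are not given in the sources used here, so overlapping genes are uncertain. Counts in the deposited table are raw, and the authors also gave FPKM, the count divided by a gene length and the total count. The length implied by both varied by at most 0.000873% between samples. The table held 27 symbols turned into dates, restored from the gene identifiers. No deposited per-sample column was left unused, and no 2 samples of the same group agreed within sampling noise (chi-square per degree of freedom 15.6 to 18.9).

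Counts were scaled by TMM, filtered with filterByExpr (minimum count 10, minimum total 15) and compared by the quasi-likelihood test of edgeR 4.0.16 (glmQLFit, glmQLFTest; R 4.3.3) under Benjamini-Hochberg adjustment over 15089 genes and a threshold of 0.05. The methods name limma without settings. An edgeR test was chosen because the values are counts, and limma 3.58.1 was an alternative. Each standard error is the absolute log2 fold change over the root of F, and 95% intervals are per gene, without adjustment. The common coefficient of biological variation was 16.5%. At these depths 3 counts are 0.166 to 0.191 CPM, and both the depth and the 3 samples a group limit precision. An exact permutation test of 3 against 3 samples cannot go below p = 0.1, so none was used. The fit was tested on simulated data; the rule for passing that test was rewritten after a first version of it was not met.

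The members, gene lists and tests were chosen with earlier results of these data known. All members were named, and from each further list up to 3 highest and 3 lowest called genes. A gene of 1 list is not reported here and was left out of its counts. Positions are those of the deposited table, and 12 members match the start and end given by GENCODE release 44, which gave exon overlaps. Promoter windows of 300 bases came from RefSeq. The 16 other fits were the replicate block, each sample left out, no filter, at least 10 counts in every sample, RLE, total-count and upper-quartile scaling, DESeq2 1.42.0, limma on voom values and limma on log2(FPKM + 1) and log2(FPKM + 0.1), the last pair limited to a mean FPKM of 1 or more. The m6A and tissue experiments of the study were not analysed here.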

Additional observations from a re-analysis of the deposited data

How the results depend on the processing

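METTL16 and the median of the members kept their direction in the 16 other fits. Of 432 member values in those fits, 391 stayed on their side of the threshold with the same sign, 20 lost the call, 16 gained one and 5 changed sign, and of 412 values of METTL16 and the other named genes 367 stayed and 45 lost the call. Leaving out single samples gave 4159 to 4526 genes called, 4 to 9 members called higher and 2 to 4 lower: the 4 higher came without si-NC replicate 1 or 3, and the 4 lower without si-NC replicate 1. It changed the sign of HMGCS1 (-0.16 to 0.01), LSS (-0.03 to 0.17) and NSDHL (-0.06 to 0.03). Upper-quartile scaling gave 4 members lower, adding HSD17B7 and SREBF1, and shifted the median of all genes to -0.03. An adjusted p under 0.01 left 3035 genes, 3 members higher and 1 lower. For these changes the cause was not tested, beyond fewer samples or a stricter limit. The replicate numbers gave no clear pairing: deviations of same-numbered samples correlated at only 0.0253, 0.0371 and 0.0298 over all tested genes. Each sample still correlated best with its own number. A correlation over all genes cannot exclude pairing for the members, which was not tested. With the replicate block, 5013 genes were called, against 5418 without it, and 9 members were higher and 2 lower, adding ACAT2, IDI1 and MVD and losing SREBF2. The member with the fewest counts, MVK, had 1854 over the 6 samples, and no fit varied the depth.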
